A study of Homo sapiens with 183 samples.

Results

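The genes described here encode 5 protein kinases of the phosphatidylinositol 3-kinase-related kinase (PIKK) family, ATM, ATR, PRKDC, MTOR and SMG1, and the 3 subunits of the TTT adaptor complex, TELO2, TTI1 and TTI2. They were taken by name, as clients and adaptors of the chaperone assembly that contains RUVBL1 and RUVBL2, a rule that uses no measured value. They are 8 of the 19875 gene names in the RNA-seq tables, and all 8 passed the filter of a mean of at least 1 TPM (a relative transcript level, per transcript length and library total) in every comparison.

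PIKKs are very large serine/threonine kinases that need dedicated help to fold and assemble after translation. The TTT complex binds newly made PIKK proteins and hands them to the R2TP assembly, in which the RUVBL1 and RUVBL2 ATPases act with RPAP3 and PIH1D1 and with the chaperone HSP90. ATM responds to DNA double-strand breaks, ATR to stalled replication forks, and PRKDC, the catalytic subunit of DNA-PK, joins broken ends. MTOR couples growth to nutrients, and SMG1 phosphorylates UPF1 in nonsense-mediated decay of mRNA. Dependence on TTT and R2TP is known at the level of the proteins, whereas the values here are levels of polyadenylated RNA.

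The 183 libraries came from human cancer cell lines. In the knockout experiments, Cas9-expressing pancreatic cancer lines received a single guide RNA (sgRNA), and RNA was taken on day 5. AsPC-1 and SUIT-2 are of the classical subtype, and T3M-4 and BxPC-3 are basal-like. The control groups, sgRosa, carried Cas9 and a guide too, against a site not needed by the cell. RUVBL1 was targeted in AsPC-1 experiment 2 (4 libraries beside 4 sgRosa), AsPC-1 experiment 3 (4 and 4), BxPC-3 experiment 2 (4 and 4), CFPAC-1 experiment 1 (4 and 4) and T3M-4 experiment 2 (3 and 4). RUVBL2 was targeted in the last 4 of these, in 4, 3, 2 and 4 libraries. KLF5, CDK1, RPA3 (spelled sgRpa3 in the labels), CHD4 and SERPINB5 were targeted in groups of 2 to 6 libraries in the same or further experiments, SUIT-2 included. Experiments are numbered as in the sample labels, the CHD4 experiment and SUIT-2 carrying no number of their own. In the inhibitor experiments, cells were treated for 24 h with CB-6644, an inhibitor of the RUVBL1 and RUVBL2 ATPase, or with DMSO. T84 (colorectal), A375 (melanoma), H1048 (small cell lung cancer) and RH30 (rhabdomyosarcoma) were parental lines with 4 libraries of each treatment. AsPC-1 and T3M-4 carried a lentiviral empty vector, RUVBL1 A62T or RUVBL2 dF109, which are resistance variants expressed beside the cells' own genes, with 3 CB-6644 libraries and 1 DMSO library for each vector. The 3 DMSO libraries of a line were pooled as its control. The labels do not name the guide of a library and do not say whether replicates came from separate cultures. The study's text describes a pair of independent guides, each with biological replicates, for KLF5, RUVBL1, RUVBL2 and sgRosa in the knockouts, and guides could not be told apart here, so that their spread includes that between guides. For the inhibitor libraries, p-values measure the spread between these samples, which may be technical. Every sample carries the same batch label.

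Depth is not known from TPM tables, and between 11292 and 14024 genes reached 1 TPM in a library. Targeted genes were checked first. RUVBL1 fell by between 1.14 and 1.87 on the log2 scale in the 5 sgRUVBL1 groups, and RUVBL2 fell by between 1.24 and 1.76 in the 4 sgRUVBL2 groups, with every library below all of its controls. SERPINB5 was lower by 1.35 in its knockout, whereas KLF5 ranged from -0.41 to 0.78 and CHD4 was at 0.28, and a Cas9 cut need not lower an mRNA. Lineage markers followed the line names (HNF4A in AsPC-1, KRT5 in BxPC-3 and T3M-4, CDX2 in T84, SOX10 in A375, POU2F3 in H1048, MYOD1 in RH30), except that the pigment genes PMEL and MLANA were near 1 TPM in A375, at medians of 0.88 and 1.23 TPM. The T3M-4 experiment 1 sgKLF5 replicate 2, CFPAC-1 sgRUVBL1 replicate 1 and SUIT-2 sgRosa replicate 1 libraries stood apart in long transcripts or in their overall level, as given beside the results they touch. In bulk libraries, fewer cells of a type and less RNA per cell cannot be told apart.

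In control cells, all 8 genes were expressed in every line, and PRKDC was the highest of the 8 in 16 of 16 control groups. Mean PRKDC levels ran from 54.2 ± 17.6 TPM (SD, n = 4) in SUIT-2 to 169 ± 2.90 TPM (n = 4) in A375. SMG1 and TELO2 followed in the AsPC-1 controls of experiment 3, at 49.9 ± 6.27 and 37.1 ± 1.2 TPM (n = 4 each), whereas ATM, ATR or TTI2 held the lowest place in each of the 16 groups. SMG1 has near-identical pseudogene copies, so that its level is uncertain where reads could be shared among them. MTOR was lowest in the AsPC-1 controls of the CHD4 experiment (15.7 ± 1.00 TPM, n = 4) and highest in H1048 (48.7 ± 1.64 TPM, n = 4), where RH30 lay beside it at 48.2 ± 2.06 TPM and did not differ beyond the spread. ATM ranged from 8.04 ± 0.974 TPM in BxPC-3 experiment 1 (n = 2) to 23.1 ± 1.94 TPM in H1048 (n = 4), and ATR from 10.1 ± 4.59 TPM in SUIT-2 to 21.7 ± 0.457 TPM in A375 (n = 4 each).

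Among the adaptor genes, TTI2 varied most between lines, by 4.05 times, from 6.92 ± 0.877 TPM in AsPC-1 (n = 4, CHD4 experiment) to 28.1 ± 4.6 TPM in SUIT-2 (n = 4). H1048 lay next to SUIT-2 at 26.7 ± 0.519 TPM, within the spread of the SUIT-2 libraries. TELO2 was lowest in CFPAC-1 at 15.6 ± 2.81 TPM and highest in AsPC-1 experiment 2 at 51.1 ± 2.78 TPM (n = 4 each), a 3.28-fold range. TTI1 ranged from 22.5 ± 1.34 TPM in T84 to 53.2 ± 1.46 TPM in A375 (n = 4 each). Levels set across tables carry any difference between tables that were made separately, and AsPC-1 alone, measured in 5 control groups, had TELO2 means between 31.4 and 51.1 TPM. The widest order change was in SUIT-2, where TTI2 stood next to PRKDC, although in most other groups it was among the lowest of the 8.

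**Figure D1:**
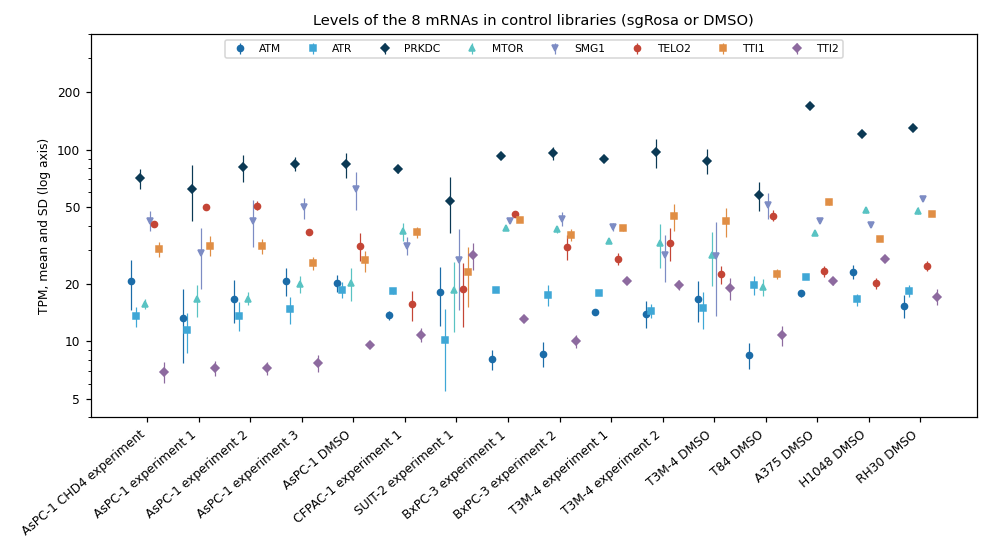
Mean TPM (log axis) with SD of the 8 genes in the 16 control groups, sgRosa per experiment and DMSO per inhibitor line, over 2 to 4 libraries each. PRKDC lies above the other 7 genes in every group, and TTI2 spans the widest range, from 6.92 to 28.1 TPM.

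Loss of RUVBL1 was compared with sgRosa in 5 experiments, to ask how RNA levels of the PIKKs and of TTT respond when a core subunit of R2TP is removed. The direction differed between experiments. In AsPC-1 experiment 2 the kinases other than SMG1 were lower, in CFPAC-1 all 5 were lower, in AsPC-1 experiment 3 and T3M-4 those called were higher, and in BxPC-3 none was called. Over the 40 gene-by-experiment pairs, 16 were called at the threshold of 0.05 on the adjusted p (limma, Benjamini-Hochberg over all genes tested), 6 higher and 10 lower. The share of all genes called was 55.8% in AsPC-1 experiment 2, 51.9% in AsPC-1 experiment 3, 16% in BxPC-3, 43.8% in CFPAC-1 and 60.5% in T3M-4, an average of 45.6% beside the 16 of 40 among the members. With libraries rescaled by the median of ratios, which sets the median gene near 0, the split was 2 higher and 13 lower. The pairs called in the TPM fit, after that scaling and after removal of a trend with transcript length numbered 10, with 2 higher and 8 lower. The share of all genes called in all of these fits was not counted. After scaling alone, 21.4% of pairs over all genes were higher and 22.8% lower.

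ATM, the double-strand break kinase, was called in both directions. In AsPC-1 experiment 2 it was at 18.5, 12.2, 21.6 and 14.5 TPM in sgRosa and at 9.17, 9.78, 8.53 and 11.6 TPM in sgRUVBL1, a log2 change of -0.69 (SE 0.16, adjusted p = 0.00179). In CFPAC-1 it was at 14.6, 13.0, 13.3 and 13.9 TPM in sgRosa and at 4.61, 9.58, 5.28 and 8.46 TPM in sgRUVBL1, a log2 change of -0.93 (SE 0.19, adjusted p = 0.00112). In both experiments every knockout library lay below every control. The knockout values in AsPC-1 experiment 3 were 33.0, 26.7, 22.0 and 29.5 TPM beside 22.9, 20.7, 23.3 and 15.8 TPM, a log2 change of 0.41 (SE 0.15, adjusted p = 0.0273) in which 3 of 4 libraries lay above all controls. That rise was not called after scaling (0.23, adjusted p = 0.117) or without any of 3 single libraries (sgRUVBL1 replicates 1 and 2, sgRosa replicate 4). ATM was not called in BxPC-3 (-0.38, SE 0.17, adjusted p = 0.13) or in T3M-4 (SE 0.17, adjusted p = 0.988), where the means were alike.

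PRKDC, the DNA-PK catalytic subunit, was lower in the same 2 experiments as ATM and higher in none. In AsPC-1 experiment 2 it fell from 76.9, 65.4, 97.2 and 83.9 TPM to 41.1, 52.8, 47.3 and 50.7 TPM (log2 change -0.73, SE 0.15, adjusted p = 0.000834). In CFPAC-1 it fell from 82.5, 80.4, 79.5 and 74.6 TPM to 28.7, 57.6, 36.9 and 54.8 TPM (-0.87, SE 0.16, adjusted p = 0.000678). The 4 CFPAC-1 knockout libraries did not form a tight group, replicates 1 and 3 being far below the other two. In BxPC-3 all 4 knockout libraries (67.9 to 85.2 TPM) lay below all controls (91.2 to 108 TPM), with a log2 change of -0.31 (SE 0.13, adjusted p = 0.108) that was called only after scaling (-0.33, adjusted p = 0.0139) or after removal of the length trend. In AsPC-1 experiment 3 and T3M-4 the log2 changes were 0.06 and -0.14 (adjusted p = 0.64 and 0.433), and in T3M-4 the scaled change of -0.43 was called (adjusted p = 0.00198).

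MTOR, the growth kinase, was lower in both of these experiments too. In CFPAC-1 the 4 knockout libraries, at 12.9, 27.5, 16.3 and 24.9 TPM, lay below all controls, at 39.7, 38.9, 39.9 and 31.2 TPM (log2 change -0.90, SE 0.17, adjusted p = 0.00072). In AsPC-1 experiment 2 they were at 9.26, 12.3, 12.3 and 12.1 TPM beside 15.3 to 18.2 TPM in sgRosa (-0.51, SE 0.17, adjusted p = 0.0198), a call lost without sgRUVBL1 replicate 1 or sgRosa replicate 3. It was not called in T3M-4 (0.34, SE 0.18, adjusted p = 0.12), in AsPC-1 experiment 3 (-0.13, SE 0.13, adjusted p = 0.418; called after scaling at -0.30, adjusted p = 0.0106) or in BxPC-3 (-0.23, SE 0.13, adjusted p = 0.242). ATR, the replication stress kinase, was called in the same 3 experiments as ATM, with the same signs and smaller changes. It was at -0.41 (SE 0.12, adjusted p = 0.00959) in AsPC-1 experiment 2, with all 4 knockout libraries (9.30 to 10.7 TPM) below the controls (11.8 to 16.9 TPM). It was at -0.36 in CFPAC-1 (SE 0.13, adjusted p = 0.0354) and at 0.33 in AsPC-1 experiment 3 (SE 0.11, adjusted p = 0.0201), and neither of these was called after scaling.

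SMG1, the kinase of nonsense-mediated decay, had the largest rises. In T3M-4 it was at 60.8, 54.9 and 53.1 TPM in sgRUVBL1 beside 27.9, 31.9, 35.5 and 17.4 TPM in sgRosa, a log2 change of 1.02 (SE 0.22, adjusted p = 0.000742). In AsPC-1 experiment 3 it was at 108, 92.0, 60.2 and 100 TPM beside 52.0, 50.3, 56.2 and 41.3 TPM (0.81, SE 0.17, adjusted p = 0.000505). In both experiments every knockout library lay above every control, and the rises were called after scaling, after removal of the length trend and without any single library of the fit. In CFPAC-1 SMG1 was instead lower, at 13.5, 29.8, 14.5 and 22.3 TPM beside 35.7, 32.4, 30.7 and 27.5 TPM (-0.70, SE 0.18, adjusted p = 0.00655), with 3 of 4 libraries below all controls. It was not called in AsPC-1 experiment 2 (-0.11, SE 0.20, adjusted p = 0.644) or BxPC-3 (0.26, SE 0.19, adjusted p = 0.378).

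The TTT genes moved less, with log2 changes between -0.38 and 0.25 over the 15 pairs. TTI1, the subunit that joins TELO2 and TTI2, was lower in CFPAC-1, at 22.6, 33.2, 27.1 and 30.7 TPM beside 33.6 to 38.9 TPM (-0.38, SE 0.10, adjusted p = 0.00667), which was not called after scaling (-0.17, adjusted p = 0.115). TTI2, its partner subunit, was higher in T3M-4, at 23.0, 23.8 and 23.2 TPM beside 18.6 to 21.2 TPM (0.23, SE 0.08, adjusted p = 0.0163), and the sign turned after scaling (-0.05, adjusted p = 0.57). In AsPC-1 experiment 2 TTI2 was at 7.94 to 10.3 TPM beside 6.61 to 7.96 TPM (0.25, SE 0.10, adjusted p = 0.0381), overlapping the controls and not called after scaling (adjusted p = 0.0503). TELO2, the subunit that contacts the kinases, was called in none of the 5 experiments, with log2 changes from -0.28 (CFPAC-1, SE 0.13, adjusted p = 0.0959) to 0.15. After scaling it was called lower in T3M-4 (-0.35, adjusted p = 0.0168). The median log2 change of the kinases was -0.51 in AsPC-1 experiment 2, -0.87 in CFPAC-1, 0.33 in AsPC-1 experiment 3, 0.0026 in T3M-4 and -0.23 in BxPC-3. For the TTT genes the medians in the same order were 0.09, -0.28, 0.18, 0.16 and -0.08, and T3M-4 was the experiment where TTT lay further from 0. The median of all genes was 0.02 in AsPC-1 experiment 2 and -0.20 in CFPAC-1.

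**Figure D2:**
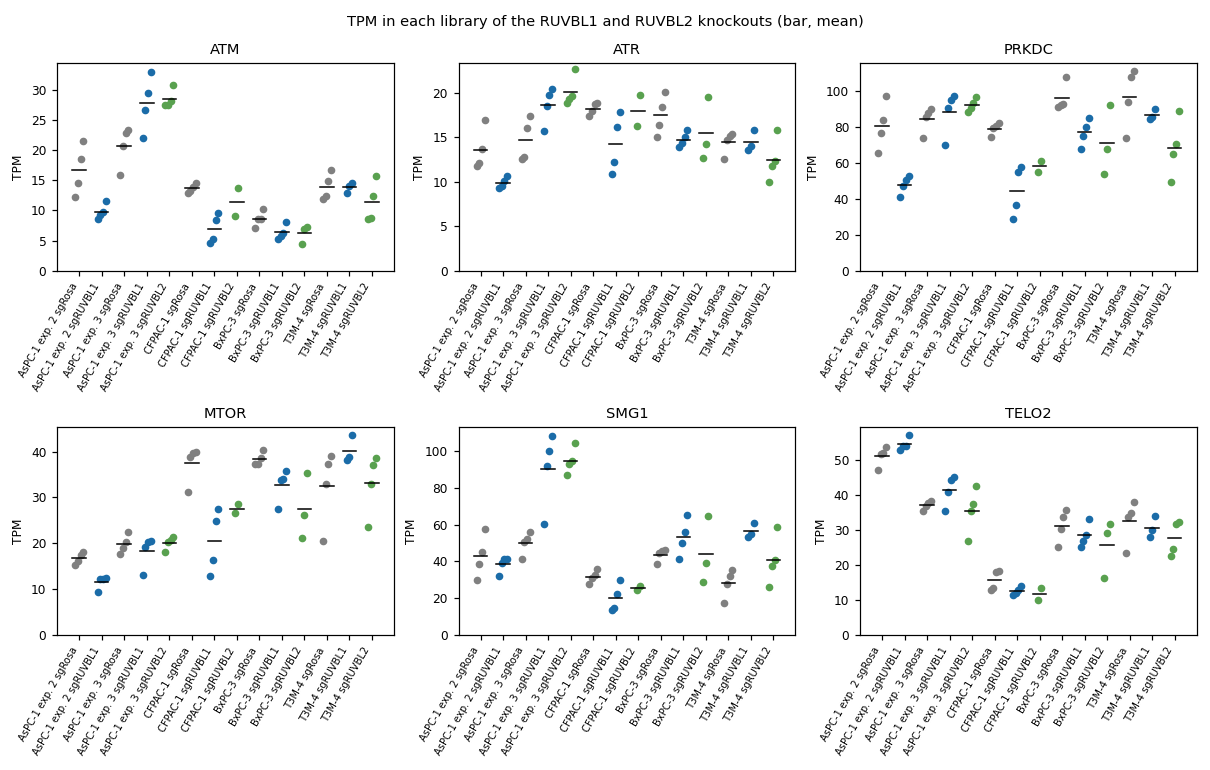
TPM of ATM, ATR, PRKDC, MTOR, SMG1 and TELO2 in each library of the knockout experiments, with sgRosa in grey, sgRUVBL1 in blue and sgRUVBL2 in green and a bar at each group mean. The sgRUVBL1 libraries of AsPC-1 experiment 2 and CFPAC-1 lie below all controls for ATM and PRKDC, and those of AsPC-1 experiment 3 and T3M-4 lie above all controls for SMG1.

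Transcript length moved with these results. The 5 kinases have canonical transcripts of 8158 bases (ATR) to 16062 bases (SMG1), and those of the TTT genes are 2131 (TTI2) to 3799 bases (TTI1). Genes with a transcript of at least 8000 bases had a median log2 change of -0.14 in AsPC-1 experiment 2, -0.45 in CFPAC-1, 0.28 in AsPC-1 experiment 3, 0.43 in T3M-4 and 0.00 in BxPC-3. Their sign was that of the kinase calls in all 4 experiments with a call, and the part of length in the result was not tested. Relative to the control mean, long genes were at a median of -0.72 in CFPAC-1 sgRUVBL1 replicate 1 and -0.56 in replicate 3, and at -0.16 and -0.31 in replicates 2 and 4. The kinases averaged -1.23 and -1.01 in the former libraries and -0.32 and -0.44 in the latter. With a trend against transcript length removed within each library, ATM, PRKDC, MTOR and SMG1 remained lower in CFPAC-1 (-0.65, -0.58, -0.69 and -0.38). So did ATM, ATR, PRKDC and MTOR in AsPC-1 experiment 2 (-0.50, -0.27, -0.54 and -0.36). ATM, ATR and SMG1 remained higher in AsPC-1 experiment 3 (0.29, 0.25 and 0.67), and SMG1 in T3M-4 (0.81). All of these were still called, whereas ATR in CFPAC-1 was not (-0.16, adjusted p = 0.179). PRKDC was also called lower in BxPC-3 (-0.30) and T3M-4 (-0.33) with that trend removed.

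**Figure D3:**
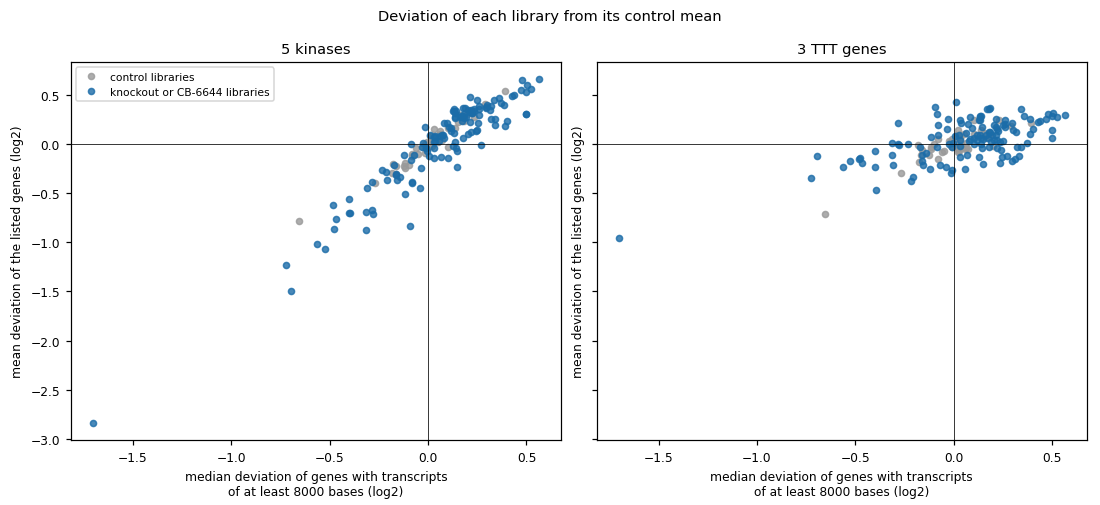
Each point is a knockout or inhibitor library, with the median deviation from the control mean of genes with a transcript of at least 8000 bases on the x axis and the mean deviation of the 5 kinases or of the 3 TTT genes on the y axis, both in log2 units. Libraries low in long transcripts were also low in the kinases, T3M-4 experiment 1 sgKLF5 replicate 2 lying lowest on both axes.

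The 2 AsPC-1 experiments gave different results for the same target in the same line, and the difference between them was tested in a joint fit. The sgRUVBL1 effect was lower in experiment 2 than in experiment 3 for ATM (-1.10, SE 0.23, adjusted p = 0.00185), ATR (-0.74, SE 0.17, adjusted p = 0.00337), PRKDC (-0.79, SE 0.19, adjusted p = 0.00543) and SMG1 (-0.93, SE 0.28, adjusted p = 0.0195). MTOR (-0.38) and the 3 TTT genes (-0.25 to 0.05) were not called, and 18.2% of all genes were called. The 4 differences were called after scaling and after removal of the length trend as well, and that of SMG1 was lost without any of 3 libraries. The median difference was -0.38 for long transcripts and -0.12 for all genes. RUVBL1 itself was lower by 1.58 in experiment 2 and by 1.4 in experiment 3.

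Loss of RUVBL2, the partner ATPase, gave fewer calls among the members. Of 32 pairs 7 were called, 4 higher and 3 lower, all of them kinases, where 43.2% of all genes were called in AsPC-1 experiment 3, 9.76% in BxPC-3, 12.1% in CFPAC-1 and 54.5% in T3M-4. SMG1 in AsPC-1 experiment 3 was at 93.0, 86.7, 94.3 and 104 TPM, above all sgRosa libraries (0.91, SE 0.17, adjusted p = 0.000281), and ATR at 19.6, 22.7, 18.8 and 19.3 TPM was above all controls too (0.44, SE 0.11, adjusted p = 0.00433). ATM rose there by 0.46 (SE 0.15, adjusted p = 0.0185), which was not called after scaling (adjusted p = 0.06). In T3M-4 PRKDC was lower, at 49.7, 88.8, 64.9 and 70.9 TPM beside 93.9, 108, 112 and 74.2 TPM (-0.51, SE 0.14, adjusted p = 0.00544), with 3 of 4 libraries below all controls. SMG1 in T3M-4 was at 26.0, 58.4, 37.4 and 40.6 TPM (0.50, SE 0.20, adjusted p = 0.0432), overlapping its controls only at the lowest library, and this call was lost under scaling and without any of 12 single libraries.

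In BxPC-3 sgRUVBL2, the 3 libraries differed widely among themselves. MTOR was at 26.1, 35.3 and 21.1 TPM, below all controls at 37.2 to 40.3 TPM (-0.49, SE 0.14, adjusted p = 0.03). PRKDC was at 68.0, 92.5 and 53.8 TPM (-0.45, SE 0.14, adjusted p = 0.0473), a call lost without any of 15 single libraries of the fit. CFPAC-1, with 2 sgRUVBL2 libraries, had no member called by limma and 2 members at an unadjusted p under 0.05, and its log2 changes ran from -0.44 (PRKDC) to -0.02 (ATR). With scaling, 2 of the 32 RUVBL2 pairs were higher and 8 lower. The lower ones in T3M-4 were ATM (-0.50), ATR (-0.41), PRKDC (-0.72), TELO2 (-0.43) and TTI1 (-0.23), beside 52.9% of all genes called after scaling. Those in BxPC-3 were MTOR (-0.43), PRKDC (-0.39) and TTI1 (-0.25), beside 14% of all genes.

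The sgRUVBL1 and sgRUVBL2 groups of an experiment share their sgRosa libraries, so they were compared directly. None of the 32 pairs differed by limma, with 6 at an unadjusted p under 0.05. Few genes of any kind differed, at 3.71% in AsPC-1 experiment 3, 0.0323% in BxPC-3, 0.0235% in CFPAC-1 and 0.0226% in T3M-4. The largest member differences were those of ATM in CFPAC-1 (-0.66, SE 0.23, adjusted p = 0.245) and SMG1 in T3M-4 (0.51, SE 0.22, adjusted p = 0.434), so that differences of this size between the 2 knockouts were not resolved here.

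**Figure D4:**
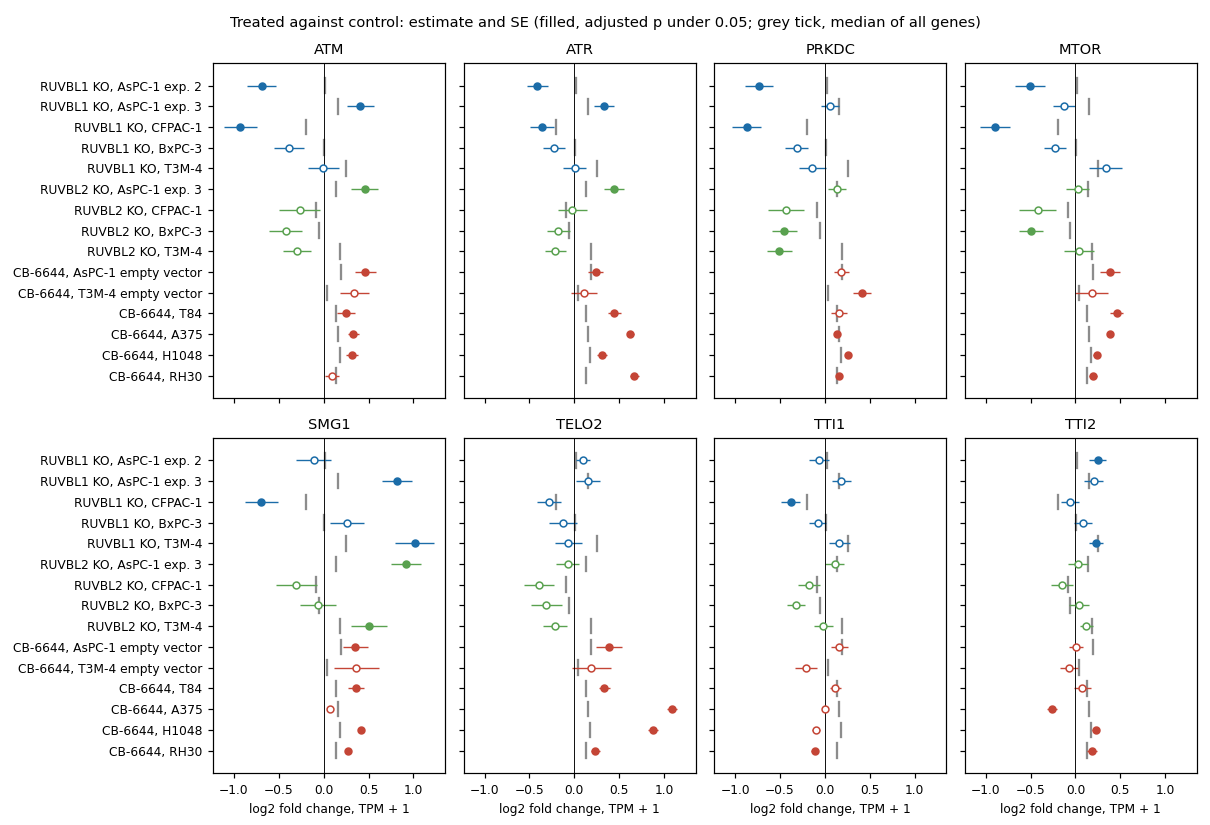
Log2 change with SE of each of the 8 genes in the 5 sgRUVBL1, 4 sgRUVBL2 and 6 CB-6644 comparisons without a resistance variant, where filled points mark an adjusted p under 0.05 and grey ticks the median of all genes tested. ATM, PRKDC and MTOR lie furthest below 0 in CFPAC-1 sgRUVBL1, SMG1 furthest above 0 in T3M-4 sgRUVBL1, and TELO2 furthest above 0 in A375 with CB-6644.

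CDK1, the mitotic kinase, and RPA3, a subunit of the single-strand DNA binding complex, were knocked out in the same experiments as genes that dividing cells need. The sgRUVBL1 groups were set against their mean, to ask which differences went beyond loss of a needed gene. In CFPAC-1, however, neither target was called, with CDK1 at -0.10 in sgCDK1 (adjusted p = 0.678) and RPA3 at -0.26 in sgRpa3 (adjusted p = 0.246). The sgRpa3 libraries of CFPAC-1 (31.0 ± 0.928 TPM, n = 2) lay below all controls (37.6 ± 5.65 TPM, n = 4), as did 1 of the 2 sgCDK1 libraries. In AsPC-1 experiment 3 neither target was called, with CDK1 at -0.19 (adjusted p = 0.202) and RPA3 at -0.44 (adjusted p = 0.0664). The 2 knockout libraries of each target lay below all controls there. Of 32 pairs 11 differed, 2 higher and 9 lower, and 7 of these were in CFPAC-1, where 55.4% of all genes differed. There ATM was lower by 1.35 on the log2 scale (SE 0.19, adjusted p = 2.83e-05), MTOR by 0.96 (SE 0.17, adjusted p = 0.000224), PRKDC by 0.81 (SE 0.16, adjusted p = 0.000613) and TELO2 by 0.66 (SE 0.13, adjusted p = 0.000661). In AsPC-1 experiment 3 (51.2% of genes) SMG1 was higher by 0.50 (SE 0.17, adjusted p = 0.0176) and MTOR at -0.43 (SE 0.13, adjusted p = 0.00766). In T3M-4 (41.8% of genes) TTI2 was higher by 0.34 (SE 0.08, adjusted p = 0.00204), ATM was at -0.48 (SE 0.17, adjusted p = 0.0301) and SMG1 was not called (0.51, SE 0.22, adjusted p = 0.0694). In BxPC-3 no member was called by limma, 1 had an unadjusted p under 0.05, and 20.4% of genes differed.

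After CB-6644 for 24 h most of the called members were higher than in DMSO. Without a resistance variant, 31 of 48 gene-by-line pairs were called, 29 higher and 2 lower, among them 22 of 30 kinase pairs, all higher. The direction depends on the scale. The median gene was itself higher by 0.13 to 0.19 in 5 of the 6 comparisons and by 0.04 in T3M-4, and with libraries scaled to each other 12 pairs were higher and 8 lower. All genes were called in either direction at 64.4% in AsPC-1, 34.3% in T3M-4, 71.4% in T84, 81.1% in A375, 77.9% in H1048 and 77.7% in RH30, and higher at 47.2%, 19.1%, 47.2%, 51.5%, 53.9% and 50.4%. The share of members called was thus near the average of 67.8% for all genes. In the TPM fit, the scaled fit and the fit without a length trend alike, 14 pairs were called, 12 higher and 2 lower. The share of all genes called in all of these fits was not counted, and after scaling alone 30% of pairs over all genes were higher and 37.6% lower. Genes with long transcripts had medians of 0.12 to 0.26 in these comparisons, and their part in the result was not tested.

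TELO2 had the largest change of the 8 genes. In A375 it went from 25.0, 24.0, 21.8 and 22.3 TPM in DMSO to 48.4, 47.9, 54.3 and 52.2 TPM in CB-6644, a log2 change of 1.09 (SE 0.05, adjusted p = 6.37e-09). In H1048 it went from 21.4, 20.5, 18.3 and 20.1 TPM to 35.4, 38.0, 40.8 and 36.4 TPM (0.87, SE 0.06, adjusted p = 3.77e-08). In both lines the groups were far apart, and the changes after scaling were 0.87 and 0.67. The rise was smaller in T84, from 41.6 to 48.4 TPM in DMSO to 51.9 to 59.8 TPM (0.34, SE 0.06, adjusted p = 0.00012), and in RH30, from 22.9 to 26.6 TPM to 28.3 to 30.1 TPM (0.24, SE 0.05, adjusted p = 0.000409), where it was not called after scaling (0.07, adjusted p = 0.18). In AsPC-1 with the empty vector it was at 36.6, 39.1 and 48.4 TPM beside 37.3, 29.3 and 27.6 TPM with the empty vector, A62T and dF109 in DMSO (0.39, SE 0.14, adjusted p = 0.0317), a call lost under scaling and without any of 3 libraries. Against the DMSO library of the empty vector alone it was 0.13 (adjusted p = 0.582), and none of the 5 members called in AsPC-1 was called on that footing. In T3M-4 the 3 treated libraries spread from 16.3 to 36.7 TPM around controls of 20.3 to 25.1 TPM (0.19, SE 0.22, adjusted p = 0.532).

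TELO2 lies at chr16:1493360-1510454 and ATR at chr3:142449235-142578733 (GRCh38.p14, RefSeq). Their upstream sequences are shown because these are the adaptor and the kinase with the highest log2 change with CB-6644 and no variant, in TPM and after scaling. Each is the 250 bases before the annotated start, 5′ to 3′ on the strand of the gene, TELO2 from chr16:1493110-1493359 (plus strand) and ATR from chr3:142578734-142578983 (minus strand). Capitals mark CACGTG, the E-box letters, and CCACCC or its reverse complement GGGTGG, the GC-rich letters known from KLF factors, searched on both strands.
TELO2: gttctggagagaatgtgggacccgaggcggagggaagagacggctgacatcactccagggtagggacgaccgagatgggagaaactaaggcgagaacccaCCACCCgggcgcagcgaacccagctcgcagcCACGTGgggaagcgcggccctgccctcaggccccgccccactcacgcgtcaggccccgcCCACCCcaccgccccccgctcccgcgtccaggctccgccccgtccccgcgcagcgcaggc
ATR: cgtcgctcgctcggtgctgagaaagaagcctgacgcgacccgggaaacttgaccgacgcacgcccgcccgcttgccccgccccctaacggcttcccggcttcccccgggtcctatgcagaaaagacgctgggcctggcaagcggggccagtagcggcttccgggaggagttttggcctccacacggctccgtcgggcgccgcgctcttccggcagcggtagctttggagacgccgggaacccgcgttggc
The TELO2 window holds 1 CACGTG, 119 bases before the start, and 2 CCACCC, 150 and 60 bases before it, and the ATR window holds neither. Of 35116 RefSeq promoters with the same window, 6.34% hold CACGTG and 31.3% hold CCACCC or GGGTGG, and a match of letters is not a bound site. The windows of MTOR, SMG1 and TTI1 hold neither motif, and that of ATM holds 1 GGGTGG.

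ATR was higher in 5 of the 6 comparisons. In RH30 it went from 19.5, 17.8, 19.4 and 16.8 TPM to 30.5, 28.1, 30.0 and 30.5 TPM (0.67, SE 0.05, adjusted p = 1.12e-07), and in A375 from 21.1, 22.2, 21.9 and 21.8 TPM to 35.6, 34.3, 32.1 and 34.1 TPM (0.62, SE 0.04, adjusted p = 4.36e-08). In T84 it went from 17.0 to 21.9 TPM to 25.3 to 29.0 TPM (0.45, SE 0.07, adjusted p = 5.7e-05). In these 3 lines no treated library overlapped a control, and the scaled changes of 0.51, 0.41 and 0.27 were called. In H1048 the change was 0.31 (SE 0.06, adjusted p = 0.000251) and fell to 0.11 after scaling (adjusted p = 0.09). In AsPC-1 it was 0.24 (SE 0.09, adjusted p = 0.0278), with a scaled value of -0.02, and in T3M-4 it was 0.11 (SE 0.14, adjusted p = 0.591).

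MTOR was higher in the same 5 lines. The largest change was in T84, from 16.8, 21.7, 18.7 and 19.7 TPM to 28.6, 27.2, 26.3 and 24.7 TPM (0.46, SE 0.07, adjusted p = 4.29e-05). A375 (0.39, SE 0.04) and AsPC-1 (0.39, SE 0.11) followed, then H1048 (0.24) and RH30 (0.20). Only in T84 and A375 was the scaled change called as well, at 0.28 and 0.17. SMG1 was higher in T84 (0.36, SE 0.09, adjusted p = 0.00198), H1048 (0.42, SE 0.03, adjusted p = 2.62e-07), RH30 (0.27, SE 0.03, adjusted p = 8.79e-06) and AsPC-1 (0.35, SE 0.14, adjusted p = 0.0418). In H1048 the 4 treated libraries, at 53.8 to 55.1 TPM, lay well above the controls at 38.9 to 41.5 TPM. In A375 SMG1 was at 0.07 (SE 0.04, adjusted p = 0.0789) in TPM and at -0.14 (adjusted p = 0.00364) after scaling.

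The DNA damage kinases ATM and PRKDC were each called in 4 of the 6. ATM was called in AsPC-1 (0.46, SE 0.12, adjusted p = 0.0037), A375 (0.33, SE 0.06), H1048 (0.32, SE 0.07) and T84 (0.25, SE 0.10), of which only AsPC-1 was called after scaling, at 0.21 (adjusted p = 0.0499). PRKDC was called in T3M-4 (0.41, SE 0.10, adjusted p = 0.0104), H1048 (0.25, SE 0.03), RH30 (0.15, SE 0.03) and A375 (0.14, SE 0.03). After scaling the T3M-4 value remained higher at 0.32, from 79.3, 103 and 81.1 TPM in DMSO to 125, 119 and 106 TPM in CB-6644, whereas the A375 value was -0.08 (adjusted p = 0.044). TTI1 was the member most often lower relative to other genes. It was called in RH30 only, from 45.4 to 47.6 TPM to 39.6 to 44.6 TPM (-0.11, SE 0.04, adjusted p = 0.0177), and after scaling in T3M-4, A375, H1048 and RH30, at -0.31, -0.21, -0.30 and -0.28. TTI2 was lower in A375, from 21.9, 20.3, 21.1 and 19.6 TPM to 17.8, 18.2, 15.8 and 16.8 TPM (-0.26, SE 0.05, adjusted p = 0.000838), and higher in H1048 (0.22, SE 0.04) and RH30 (0.19, SE 0.06), the last 2 not called after scaling. In AsPC-1 with the empty vector TTI2 was at 0.01 (adjusted p = 0.923) in TPM and at -0.23 (adjusted p = 0.0352) after scaling.

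**Figure D5:**
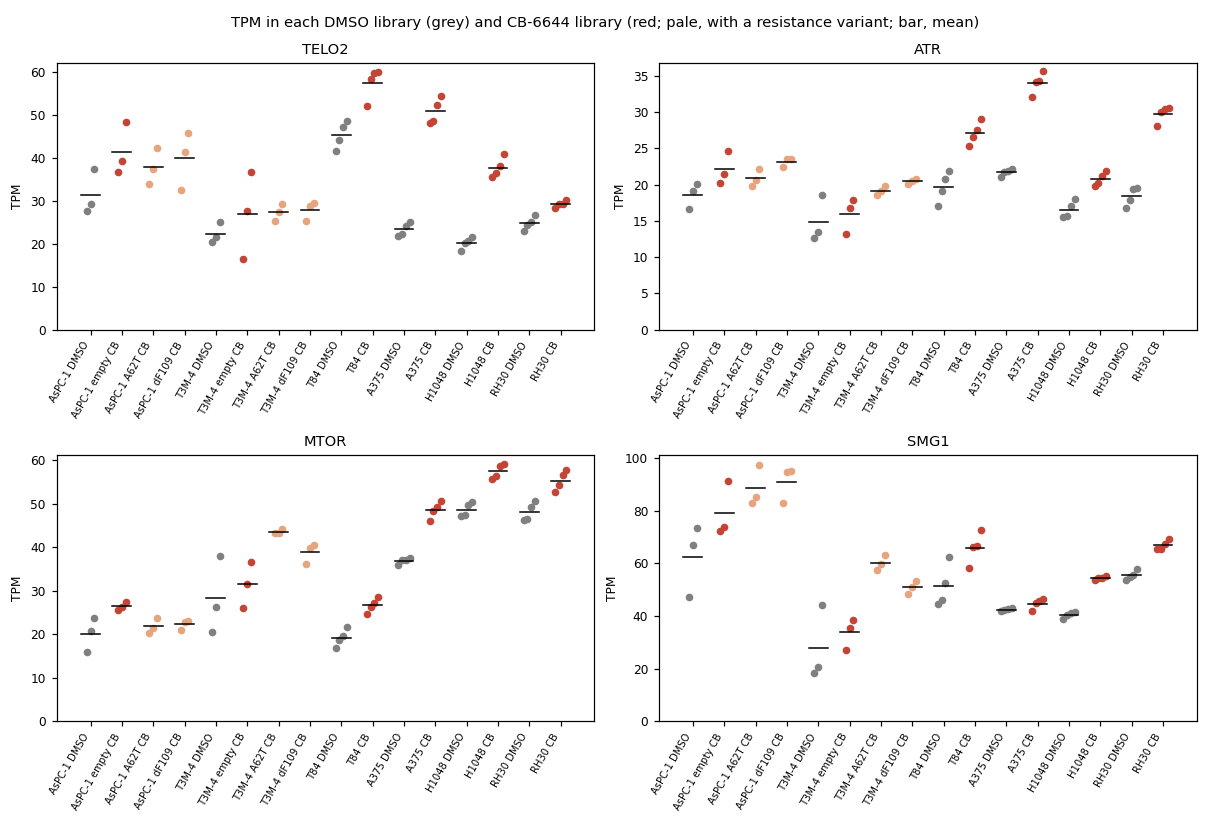
TPM of TELO2, ATR, MTOR and SMG1 in each library of the inhibitor experiments, with DMSO in grey, CB-6644 in red and CB-6644 with a resistance variant in pale red. TELO2 in A375 runs from 21.8 to 25.0 TPM in DMSO and from 47.9 to 54.3 TPM in CB-6644, and in RH30 from 22.9 to 26.6 TPM and from 28.3 to 30.1 TPM.

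Whether the response differed between the parental lines was tested by the interaction of line and treatment over the 32 libraries of T84, A375, H1048 and RH30. It differed for 6 of the 8 genes, beside 86.2% of all genes. TELO2 had the largest F value of the 8 (50.7, adjusted p = 7.84e-11), with A375 and H1048 above T84 and RH30. TTI2 (adjusted p = 0.000235), ATR (0.00101), TTI1 (0.0039), MTOR (0.00403) and SMG1 (0.00557) differed too, and ATM and PRKDC were not called. All 6 were called without any single library. The order of the lines was not shared among the genes, since ATR rose most in RH30 and A375, MTOR in T84 and A375, and SMG1 in H1048 and T84.

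RUVBL1 A62T and RUVBL2 dF109 were included to ask whether a resistant ATPase changes the response to CB-6644. With a variant, 16 of 32 pairs were called, all higher. In AsPC-1 1 member was called with A62T, where 12.7% of all genes were, and 5 with dF109, where 33.4% were. In T3M-4 5 were called with each, beside 50% and 37.6% of genes. The counts in T3M-4 depended on its control libraries. The median gene was higher by 0.33 with A62T and 0.29 with dF109 in that line, and after scaling 5 of the 32 pairs were higher and 1 lower. Without the dF109 DMSO library of T3M-4 the count fell to 7, and without its empty-vector DMSO library to 9. Only 2 calls survived the removal of every single library, ATM in AsPC-1 with dF109 (0.49, SE 0.12, adjusted p = 0.00932) and SMG1 in T3M-4 with A62T (1.2, SE 0.25, adjusted p = 0.00677). The latter rested on treated libraries of 59.7, 63.2 and 57.6 TPM beside DMSO libraries of 18.4, 44 and 20.7 TPM, of which that of A62T itself was the 44 TPM one, and against that library alone SMG1 was at 0.44 (adjusted p = 0.171).

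The treated libraries were then compared with each other, a contrast that uses no DMSO library and leaves in any difference between the vector lines without treatment. In T3M-4 DMSO, SMG1 was at 18.4 TPM with the empty vector, 44 TPM with A62T and 20.7 TPM with dF109, and TTI1 at 35.7, 50.2 and 40.9 TPM. The single DMSO libraries were thus lowest with the empty vector for both genes, and the part of this in the differences was not tested. Empty vector differed from the mean of both variants for 4 of 16 pairs, where 55% of all genes differed in AsPC-1 and 53.9% in T3M-4. In T3M-4, TTI1 was lower with the empty vector, at 39.8, 36.8 and 32 TPM beside 53.8, 59.2 and 52.0 TPM with A62T and 54.3, 56.9 and 53.1 TPM with dF109 (-0.59, SE 0.10, adjusted p = 0.00127). No empty-vector library overlapped a variant library, and the scaled difference of -0.33 was called. SMG1 was lower there as well, at 38.4, 35.5 and 27.2 TPM beside 48.4 to 63.2 TPM (-0.71, SE 0.22, adjusted p = 0.0175; scaled -0.45), a call lost without empty-vector replicate 3. TTI2 in T3M-4 (-0.24, SE 0.09, adjusted p = 0.039) and MTOR in AsPC-1 (0.25, SE 0.10, adjusted p = 0.0452) were called in TPM only, with scaled values of 0.02 and 0.15. TELO2, the gene with the largest CB-6644 response elsewhere, was at 0.09 (SE 0.13) in AsPC-1 and -0.10 (SE 0.19) in T3M-4.

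Knockout of KLF5, a transcription factor of the squamous and glandular epithelium, left nearly all members uncalled in the TPM fit. Of 64 pairs in 8 experiments 1 was called, TELO2 in AsPC-1 experiment 1, where 6 sgKLF5 libraries at 37.0 to 44.7 TPM (median 41.9) lay below both sgRosa libraries at 49.2 and 50.9 TPM (-0.27, SE 0.08, adjusted p = 0.0375). That call was lost without any of 5 single libraries, and at an unadjusted p under 0.05 there were 13 pairs. After scaling 7 pairs were called, all lower. They were TELO2 in AsPC-1 experiments 1 (-0.36) and 3 (-0.30) and TTI2 in AsPC-1 experiment 1 (-0.33). The others were ATM, ATR and PRKDC in T3M-4 experiment 1 and PRKDC in T3M-4 experiment 2 (-0.42). After scaling, 29.3% and 30.4% of all genes were called in these AsPC-1 experiments and 20.1% and 37.7% in those of T3M-4. In the TPM fit, all genes were called at 25.9% in AsPC-1 experiment 1, 27.8% in AsPC-1 experiment 3, 16.2% in BxPC-3 experiment 1, 34.6% in BxPC-3 experiment 2, 5.72% in T3M-4 experiment 1, 34.6% in T3M-4 experiment 2, 16.2% in CFPAC-1 and 3.94% in SUIT-2. The largest changes uncalled in the TPM fit were in T3M-4 experiment 1. SMG1 was at 9.49, 2.25, 16.9 and 20.8 TPM beside 38.4 and 40.9 TPM (-1.92, adjusted p = 0.161), and ATM at 3.54, 1.70, 5.88 and 7.26 TPM beside 14.3 and 14.3 TPM (-1.57, adjusted p = 0.081). PRKDC was at 26.5, 8.29, 46.3 and 51.6 TPM beside 89.3 and 90.5 TPM (-1.69, adjusted p = 0.17). All 4 knockout libraries lay below both controls for these genes. Replicate 2 had 11524 genes at 1 TPM and a median of -1.70 for long transcripts, and without it ATM (-1.26), ATR (-0.92), PRKDC (-1.15) and SMG1 (-1.34) were called. The share of all genes called without replicate 2 was not counted, so these calls cannot be set against it. Long transcripts had a median of -0.74 in that comparison with replicate 2 included, and their part in the result was not tested.

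CDK1 or RPA3 knockout called 4 of 80 pairs in 10 comparisons. In AsPC-1 experiment 3, sgCDK1 raised TTI1 (0.49, SE 0.13, adjusted p = 0.0142), ATR (0.44, SE 0.14, adjusted p = 0.0351) and PRKDC (0.38, SE 0.12, adjusted p = 0.0374), where 16.7% of all genes were called. In BxPC-3 experiment 2, sgRpa3 lowered TTI1 (-0.33, SE 0.12, adjusted p = 0.0498), where 20.8% were. None of the 4 survived the removal of every single library. For the other 8 comparisons no member was called by limma, and the share of genes was 0.654% (sgRpa3) in AsPC-1 experiment 3, 5.82% (sgCDK1) in BxPC-3 experiment 2, 0% and 11.6% (sgCDK1 and sgRpa3) in CFPAC-1, 16.8% and 24.6% in T3M-4 experiment 2, and 0.307% and 0% for sgRpa3 in BxPC-3 and T3M-4 experiment 1. At an unadjusted p under 0.05, 14 of the 80 pairs passed. Loss of CHD4, a chromatin remodeller, and of SERPINB5, a serpin, called none of 16 pairs by limma, beside 50% and 0.0343% of all genes, and 2 pairs had an unadjusted p under 0.05.

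The partner proteins of each kinase, from lists of named genes, were counted over the 5 RUVBL1 knockout and the 6 CB-6644 comparisons without a variant. Over all genes, 25.6% of knockout pairs were higher and 20.1% lower, and 44.7% of inhibitor pairs were higher and 22.9% lower. After scaling these shares were 21.4% and 22.8% in the knockouts and 30% and 37.6% with the inhibitor. The 8 partners of SMG1 in nonsense-mediated decay had 25 of 40 knockout pairs and 35 of 48 inhibitor pairs higher and 2 and 4 lower. After scaling, 22 and 27 were higher and 0 and 7 lower. UPF3B, which links UPF2 to the exon junction, was higher in 5 of 5 knockout and 6 of 6 inhibitor comparisons (median log2 change 0.47 and 0.62), and in 4 and 5 after scaling. SMG5, which binds phosphorylated UPF1, was higher in 4 and 5 (0.83 and 0.45), and SMG8, a subunit of the SMG1 complex, in 4 and 5 (0.34 and 0.48). After scaling these were 4 and 4 for SMG5 and 3 and 5 for SMG8. SMG9, another subunit of the SMG1 complex named after its values were seen, had lower means with CB-6644 than in DMSO. They were 27.5 beside 46.4 TPM in H1048, 23.1 beside 29.4 in T84, 46.7 beside 55.5 in A375 and 23.7 beside 35.5 in AsPC-1. In RH30 and T3M-4 the difference lay within the spread. With sgRUVBL1 the SMG9 mean was above sgRosa in T3M-4 (85.5 beside 58.9 TPM), BxPC-3 (48.9 beside 36.2 TPM) and AsPC-1 experiment 2 (35.4 beside 27.9 TPM). In these experiments every knockout library lay above every control. It was also higher in AsPC-1 experiment 3 (32.8 beside 29.7 TPM) and lower in CFPAC-1 (40.6 beside 49.0 TPM), with libraries overlapping the controls in each.

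Partners of the DNA damage kinases were mixed. Of 8 ATR partners, 26 of 48 inhibitor pairs were higher and 9 lower, and after scaling 21 and 17. RAD9A, of the 9-1-1 clamp (median 0.98), ATRIP, the obligate ATR subunit (0.58), and CLSPN, the fork adaptor claspin (0.50), were higher in 6 of 6, also after scaling. HUS1, another subunit of the 9-1-1 clamp, named after its values were seen, was lower in 6 of 6 (-0.42), also after scaling. In the RUVBL1 knockouts CLSPN was higher in none and lower in 2 of 5, and HUS1 was higher in 3. Of 3 ATM partners, 3 of 18 pairs were higher and 8 lower (1 and 11 after scaling), and NBN, which recruits ATM to breaks, was lower in 6 of 6 (-1.07). Of 6 DNA-PK partners, 9 of 36 pairs were higher and 16 lower (7 and 20 after scaling), with LIG4, the end-joining ligase, higher in 6 of 6 (0.62) and in 4 of 5 knockouts (0.67), and XRCC5 (-0.23) and NHEJ1 (-0.37) lower in 5 of 6 each. In the RUVBL1 knockouts these 3 lists had 13 of 40, 1 of 15 and 6 of 30 pairs higher and 6, 5 and 8 lower, and after scaling 11, 1 and 7 higher and 8, 7 and 9 lower.

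Partners of MTOR moved in both directions. With CB-6644, 13 of 42 pairs were higher and 21 lower, and after scaling 4 and 25. MLST8, a subunit of both mTOR complexes, was lower in 6 of 6 inhibitor comparisons (-0.71) and in 5 of 5 knockouts (-0.46, 3 of 5 after scaling). PRR5, of mTORC2, was lower in 6 (-0.66), and AKT1S1, the mTORC1 inhibitor PRAS40, in 5 (-0.53). The mTORC2 subunits MAPKAP1 and RICTOR, named after their values were seen, were higher in 5 (0.21) and 4 (0.36), the former in 1 after scaling. In the knockouts 6 of 34 mTOR pairs were higher and 10 lower, and after scaling 3 and 11. Among 6 genes of R2TP and HSP90, 17 of 30 knockout pairs were lower and 4 higher, of which the 5 of RUVBL1 are the targeted gene, and after scaling 15 and 3. With CB-6644 17 of 36 were lower and 5 higher, and after scaling 26 and 1. HSP90AB1, the constitutive HSP90, was lower in 5 of 5 knockouts (-0.18, 3 of 5 after scaling) and 6 of 6 inhibitor comparisons (-0.53), and PIH1D1, the R2TP subunit that binds TELO2, was lower in 4 of 5 knockouts (-0.29). With CB-6644 PIH1D1 was mixed, higher in 2 and lower in 3 of 6 comparisons (median 0.04).

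TRRAP, the remaining PIKK, lacks kinase activity and serves as a scaffold of acetyltransferase complexes. Its level differed widely between lines, from 9.14 ± 3.71 TPM in T3M-4 experiment 2 (n = 4) to 167 ± 32.9 TPM in the AsPC-1 DMSO libraries (n = 3). With RUVBL1 knockout it was lower in CFPAC-1 (9.0 ± 2.86 beside 19.5 ± 3.52 TPM, n = 4 each, log2 change -1.06, SE 0.17, adjusted p = 0.000262) and higher in T3M-4 (14 ± 0.705 TPM, n = 3, beside 9.14 ± 3.71 TPM, n = 4, log2 change 0.65, SE 0.25, adjusted p = 0.0314), the same signs as SMG1 in these experiments. In AsPC-1 experiment 2, where SMG1 was not called (-0.11), every sgRUVBL1 library of TRRAP (93.1 to 114 TPM) lay below every sgRosa library (124 to 172 TPM). Its knockout libraries overlapped the controls in AsPC-1 experiment 3 and BxPC-3. With CB-6644 and no variant it was called in RH30 only (-0.22), and it was lower with the empty vector than with the variants in AsPC-1 (-0.40, SE 0.12, adjusted p = 0.013) and T3M-4 (-0.84, SE 0.21, adjusted p = 0.00662).

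For each gene the most similar profile of log2 changes over the 39 comparisons with a control was sought among 9564 genes tested in every fit. These comparisons share control libraries and long-transcript shifts, so the values are a description. SMG1 was most like BIRC6 (Pearson r = 0.970), MED13L (0.955) and RSC1A1 (0.954). ATM was most like FARP2 (0.916), ATR like DNM1L (0.887), PRKDC like USP45 (0.916) and MTOR like CHD8 (0.915). TELO2 was most like PYCR3 (0.874), TTI1 like POLR1A (0.827) and TTI2 like PRPF38A (0.789). The kinases resembled each other, with r from 0.719 to 0.881 over their pairs. With the kinases, TTI1 had r from 0.606 (ATR) to 0.760 (MTOR), partly within that range, and TTI2 from 0.253 (ATM) to 0.523 (SMG1). TELO2 had r from 0.0521 to 0.472 with the other 7 genes.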

How the data were processed

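RNA was sequenced single-end after poly-A selection, and the authors quantified it with kallisto on hg38, removed transcripts of low abundance at a limit not stated in the sources used here, and summed transcripts to genes with tximport. The deposited values are TPM per gene and library, scaled to the same total in each library, so depth is unknown and the count model of the study could not be run. Here log2(TPM + 1) was fitted with limma 3.58.1 in R 4.3.3 (empirical Bayes with a mean trend), with all libraries of a line and experiment in one fit, keeping genes whose mean reached 1 TPM. P-values were adjusted by Benjamini-Hochberg over all genes tested, at a threshold of 0.05. Fold changes are on the log2(TPM + 1) scale and understate the change of low genes.

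The 8 members, the partner lists and the tests were chosen with earlier results of these data known. Named genes were all members, TRRAP, the knocked-out genes, up to 3 genes of a partner list with the largest median change among those called in the same direction in at least 4 of 5 RUVBL1 knockout or 5 of 6 CB-6644 comparisons, and the 3 genes most correlated with a member, of which the first or all are given. Alternatives were another pseudocount (0.1), filters (none or 5 TPM), scaling by the median of ratios, fits of only the groups compared, a replicate block, the DMSO library of the same vector and leaving out each library. Removal of a lowess trend with transcript length in each library was added after the data were seen. The scripts were tested on simulated data. Promoter windows and coordinates are from RefSeq GRCh38.p14. PRKDC and TTI2 lie on chromosome 8, and their positions and sequences are not reported here.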

Additional observations from a re-analysis of the deposited data

Results flagged for a closer look

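In 16 of 240 sets of a gene in a group of 4 to 10 libraries, a single library lay far from the others, and chance flags about 1 in 20 such sets. MTOR was at 11.8 TPM and TTI1 at 24.3 TPM in sgCHD4 replicate 2, and TELO2 at 45.4 TPM in sgCHD4 replicate 1. In AsPC-1 experiment 2, MTOR was at 9.26 TPM in sgRUVBL1 replicate 1, and MTOR and TTI1 were at 8.12 and 22.5 TPM in sgSERPINB5 replicate 4. In AsPC-1 experiment 3, ATR was at 19.7 TPM in sgKLF5 replicate 3 and TTI1 at 22.6 TPM in sgRUVBL1 replicate 4. TTI2 was at 7.98 TPM in T3M-4 experiment 1 sgKLF5 replicate 2. Among controls, PRKDC was at 108 TPM in BxPC-3 experiment 2 sgRosa replicate 1, MTOR at 31.2 TPM in CFPAC-1 sgRosa replicate 4, TTI1 at 34.3 TPM in T3M-4 experiment 2 sgRosa replicate 4, and MTOR and TTI1 at 7.55 and 11.1 TPM in SUIT-2 sgRosa replicate 1. In H1048, TTI2 was at 29.3 TPM in CB-6644 replicate 1 and PRKDC at 123 TPM in DMSO replicate 4.

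The CB-6644 effect differed between T84, A375, H1048 and RH30 (limma F test) for TELO2 (adjusted p = 7.84e-11), TTI2 (adjusted p = 0.000235), ATR (adjusted p = 0.00101), TTI1 (adjusted p = 0.0039), MTOR (adjusted p = 0.00403) and SMG1 (adjusted p = 0.00557). Under CB-6644, empty vector minus variants was 0.25 for MTOR in AsPC-1, and -0.71, -0.59 and -0.24 for SMG1, TTI1 and TTI2 in T3M-4. The sgRUVBL1 effect of AsPC-1 experiment 2 minus that of experiment 3 was -1.10 for ATM, -0.74 for ATR, -0.79 for PRKDC and -0.93 for SMG1.

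In 7 further pairs of comparisons every library of one moved up and every library of the other moved down, and the pairwise difference was not tested. How often other genes move in this way was not counted, so the number is not a result about the members. SMG1 after sgRUVBL2 was higher in AsPC-1 experiment 3 than in CFPAC-1 by a log2 difference of 1.22. TTI2 with CB-6644 differed between H1048 and A375 by 0.48, and between RH30 and A375 by 0.45. After sgKLF5, TELO2 differed between BxPC-3 experiment 2 and AsPC-1 experiment 1 by 0.62, and TTI1 between BxPC-3 experiment 2 and CFPAC-1 by 0.47. TTI2 differed between BxPC-3 experiment 1 and AsPC-1 experiment 1 by 0.31, and between BxPC-3 experiment 1 and T3M-4 experiment 1 by 0.52.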

How the results depend on the processing

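Scaling by the median of ratios gave 20 called pairs for CB-6644 without a variant, 6 with a variant, 7 for KLF5, 11 for CDK1 or RPA3 and 1 for CHD4 or SERPINB5 knockout. It turned the sign of ATR (-0.020) and TTI2 (-0.23) in AsPC-1 with empty vector and CB-6644, PRKDC (-0.090) in T3M-4 with A62T and CB-6644, PRKDC (-0.082), SMG1 (-0.14) and TTI1 (-0.21) in A375 and PRKDC (-0.018) in RH30 with CB-6644, ATR (-0.27) and TTI2 (-0.051) in T3M-4 sgRUVBL1, and TTI2 (0.019) for empty vector minus variants in T3M-4. Removal of the length trend gave 10 pairs with a variant and 3 for KLF5. Fits of only the groups compared gave 5 with a variant, 4 for KLF5, 7 for CDK1 or RPA3 and 4 for RUVBL2 knockout. Without a filter, RUVBL2 knockout had 4 and CDK1 or RPA3 had 1. Against the DMSO library of the same vector alone, 3 of 16 pairs were called without a variant. The causes were not tested.

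Leaving out single libraries gave 14 to 17 called pairs for RUVBL1 knockout, 5 to 8 for RUVBL2, 28 to 34 for CB-6644 without a variant and 7 to 19 with one, 2 to 6 for empty vector minus variants, 0 to 5 for KLF5, 1 to 6 for CDK1 or RPA3, 0 to 1 for CHD4 or SERPINB5, 10 to 12 for RUVBL1 minus CDK1 and RPA3, 0 to 0 for RUVBL1 minus RUVBL2, 3 to 4 between the AsPC-1 experiments and 6 to 6 between lines. The count with a variant fell to 10 without T3M-4 dF109 CB-6644 replicate 2, that of empty vector minus variants to 2 without T3M-4 empty-vector CB-6644 replicate 3, and that of CDK1 or RPA3 to 1 without either AsPC-1 sgCDK1 library and 2 without AsPC-1 experiment 3 sgRosa replicate 4. CHD4 knockout had 1 call without sgCHD4 replicate 1 (ATM, -0.74) or 3 (ATR, -0.47). For KLF5 the count was 0 without AsPC-1 experiment 1 sgRosa replicate 1 or 2 or sgKLF5 replicate 1, 3 or 5, 5 without T3M-4 experiment 1 sgKLF5 replicate 2, 3 without BxPC-3 experiment 2 sgRUVBL2 replicate 3 or CFPAC-1 sgRUVBL1 replicate 1, and 2 without AsPC-1 experiment 3 sgRosa replicate 3, T3M-4 experiment 2 sgRosa replicate 4 or CFPAC-1 sgRUVBL1 replicate 2.

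Same-numbered libraries did not deviate together (r over 0.1) in every pair of any comparison with 3 or more pairs. That rule cannot show that they share only a number, since some pairs did pass it. In BxPC-3 experiment 2 sgKLF5, 3 of 4 pairs were over 0.1, with r up to 0.20. With the replicate block, 10 KLF5 pairs were called, and 15 for RUVBL1, 8 for RUVBL2, 25 of 32 for CB-6644 in the parental lines, and 6 for empty vector minus variants. No block could be fitted for CB-6644 with a variant, since its DMSO libraries carry no number.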
